A study of Homo sapiens with 6 samples.

Results

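Hypoxia and glycolysis genes were followed in the established colorectal adenocarcinoma line HT29, in 3 arrays of cells with a control construct and 3 arrays of cells with a laminin α1 expression construct. Laminin α1 is a chain of laminin, the heterotrimeric glycoprotein of basement membranes. The members were 35 genes chosen by name, and per gene the probe set with the highest mean over all 6 arrays was taken among those that the platform annotation maps to exactly 1 symbol. Of the 35 genes, 34 had such a probe set, among 18417 genes on the array, and PGAM1, a phosphoglycerate mutase, was listed only together with its copy PGAM4 and has no value. Of the 34, 31 lay above the level filter (log2 5.50, the 25th percentile of all genes) and were tested among 13812 genes. BNIP3, SLC2A3 and LOX lay below it. Both groups were grown for 7 days, and each array is from 1 of 3 culture passages of its group. The sources used here state neither the construct's promoter nor how many clones each group represents. LAMA1, which encodes the chain, read 5.71, 5.63 and 5.60 in control and 5.79, 5.72 and 5.71 in laminin α1 arrays, a difference of 0.093 (SE 0.064, adjusted p = 0.535) that did not pass the test. It therefore does not check the labels, and the groups are the arrays labelled control and labelled laminin α1 throughout.

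Cells sense oxygen through prolyl hydroxylases of the EGLN family, which use oxygen to mark the α subunits of the hypoxia-inducible factors (HIF) for destruction by the VHL ubiquitin ligase. When oxygen is scarce the α subunits persist, pair with ARNT and bind short DNA elements with the core ACGTG or GCGTG near their target genes. The targets include glucose transporters, nearly every enzyme of glycolysis, the kinase PDK1 that holds pyruvate back from mitochondria, and EGLN3 itself, which makes a feedback loop. Colorectal cancer cells in culture commonly run glycolysis at a high rate with oxygen present.

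Of the 31 tested members, P4HA2 and ENO2 rose, NDRG1 and EGLN3 fell, and 27 did not pass the limma test at an adjusted p of 0.05. That is 4 of 31, where 5.29% of all tested genes were called, with 2.69% higher and 2.59% lower. Without adjustment 9 of 31 members had a p under 0.05, against 16.7% of all genes. The median log2 difference of the members (laminin α1 minus control) was 0.033, and that of all tested genes was -0.011. The arrays of one group lay wholly above or below those of the other for 14 members, 8 higher and 6 lower with laminin α1. Over all genes tested 21.6% were separated in this way, 10.1% higher and 11.5% lower. These counts describe the list and were not tested, and the differences were small: the 4 called members changed by 1.21-fold to 1.36-fold.

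**Figure D1:**
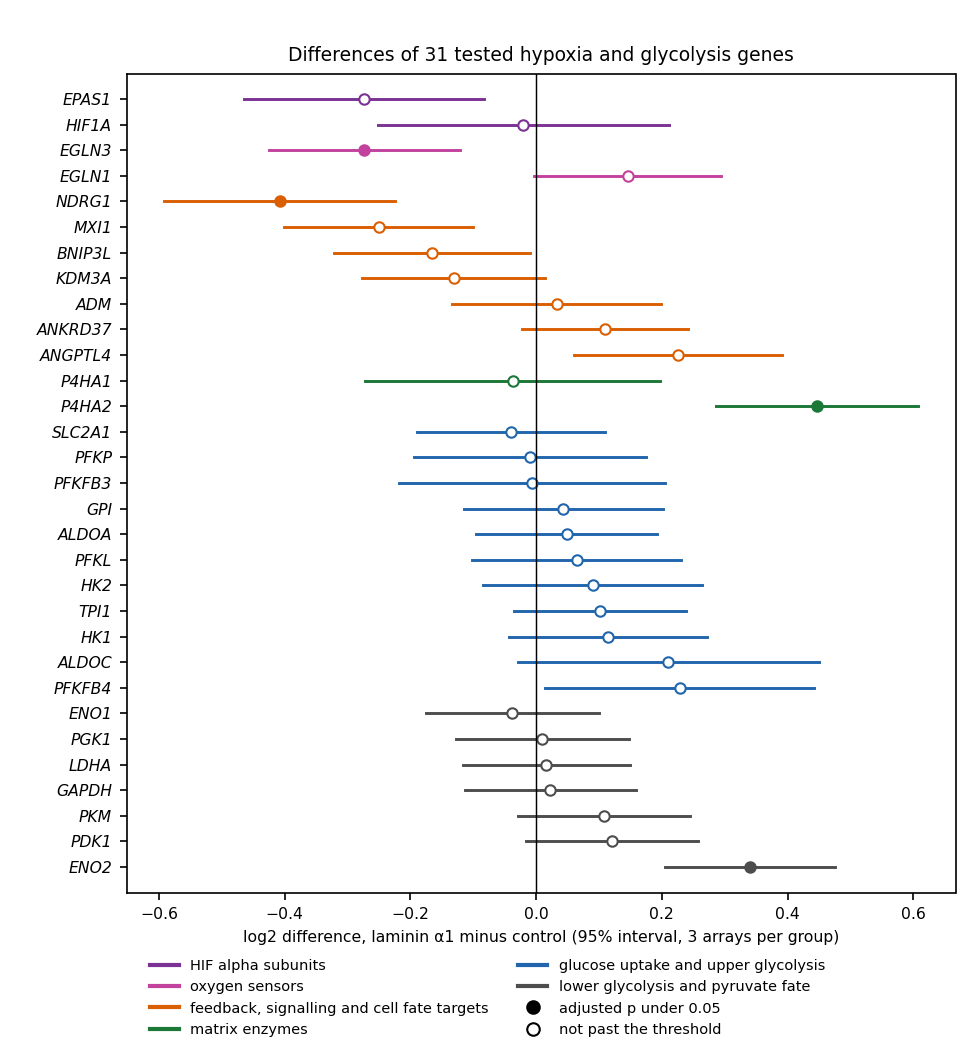
Log2 difference between laminin α1 and control arrays (x axis) for the 31 tested members (y axis), grouped by role, with 95% intervals of the limma fit; filled points passed an adjusted p of 0.05. P4HA2 (0.45) and ENO2 (0.34) lie to the right and NDRG1 (-0.41) and EGLN3 (-0.27) to the left, while SLC2A1, GAPDH, PGK1 and LDHA lie close to 0.

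The DNA just upstream of these genes shows how unevenly the HIF core occurs among them. The 250 bases before the RefSeq start (build GRCh38.p14) were searched for ACGTG and GCGTG on both strands, that is also for CACGT and CACGC. In the palindrome CACGTG, which is also the E-box letters bound by MYC and its partners, ACGTG and CACGT overlap and count as 2 positions. The table holds 54 starts of 32 members, several for some genes and some of them overlapping. A core was found at 37 of the 54 starts, or 68.5%, compared with 53.5% of the 15460 starts of tested genes and 43.2% of all 35116 starts. For 27 of the 32 members at least 1 start had a core, and for EGLN3, P4HA2, PGAM1, PKM and SLC2A1 none had. A gene with several starts has more chances of a core, and the matching share per gene over all genes was not counted. The sequences of the called members in the table, ENO2, P4HA2 and EGLN3, are shown first, followed by PGK1 and LDHA, glycolytic genes whose values hardly differed between the groups. Capitals mark the core in either orientation, and each sequence reads 5′ to 3′ on the gene's strand.
ENO2, chr12:6914330-6914579, plus strand: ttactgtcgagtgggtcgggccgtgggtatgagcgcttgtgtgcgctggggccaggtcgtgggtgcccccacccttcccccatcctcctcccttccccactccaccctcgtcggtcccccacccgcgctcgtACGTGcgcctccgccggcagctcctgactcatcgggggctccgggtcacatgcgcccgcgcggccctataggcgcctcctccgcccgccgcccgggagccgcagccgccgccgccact
P4HA2, chr5:132227092-132227341, minus strand: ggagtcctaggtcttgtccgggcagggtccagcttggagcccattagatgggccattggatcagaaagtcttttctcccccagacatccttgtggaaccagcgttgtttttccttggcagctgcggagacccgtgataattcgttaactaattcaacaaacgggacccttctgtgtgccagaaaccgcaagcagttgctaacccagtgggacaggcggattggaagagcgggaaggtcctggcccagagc
EGLN3, chr14:33951075-33951324, minus strand: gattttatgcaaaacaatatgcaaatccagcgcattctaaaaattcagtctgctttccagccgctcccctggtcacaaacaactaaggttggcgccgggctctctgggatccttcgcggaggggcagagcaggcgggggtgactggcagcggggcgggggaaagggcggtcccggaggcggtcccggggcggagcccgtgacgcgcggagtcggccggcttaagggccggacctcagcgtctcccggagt
PGK1, chrX:78103998-78104247, plus strand: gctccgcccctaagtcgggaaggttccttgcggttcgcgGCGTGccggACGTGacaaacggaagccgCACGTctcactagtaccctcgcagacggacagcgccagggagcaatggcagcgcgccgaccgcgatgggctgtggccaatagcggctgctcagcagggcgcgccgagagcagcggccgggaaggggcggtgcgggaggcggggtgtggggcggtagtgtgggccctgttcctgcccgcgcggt
LDHA, chr11:18394313-18394562, plus strand: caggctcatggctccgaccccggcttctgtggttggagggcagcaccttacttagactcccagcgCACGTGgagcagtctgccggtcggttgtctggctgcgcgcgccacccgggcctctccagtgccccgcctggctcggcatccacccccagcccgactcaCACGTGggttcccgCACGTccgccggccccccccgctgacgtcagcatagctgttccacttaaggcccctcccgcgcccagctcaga
The ENO2 window holds the core once, at position -118 from the start. PGK1 holds it at -211, -202 and -183. LDHA, shown at the first of its starts in the table, holds the palindrome from -185 and from -87, and a further CACGT at -73. The windows of P4HA2 and EGLN3 have none of these letters, which says nothing of sites elsewhere. Cores therefore stood upstream of members that did not pass the test and were missing in this window from 2 of those that did.

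Among the matrix enzymes, P4HA2 had the smallest p of all members. It encodes a catalytic subunit of collagen prolyl 4-hydroxylase, the enzyme that lets collagen form a stable triple helix, which needs oxygen as the EGLN enzymes do. Its log2 values were 7.72, 7.70 and 7.63 in control and 8.24, 8.11 and 8.04 in laminin α1 arrays. The groups did not overlap, and the lowest laminin α1 array stood clear of the highest control array by more than the range within either group. The difference was 0.45 (SE 0.072, 95% interval 0.29 to 0.61, n = 3 per group), or 1.36-fold, with an adjusted p of 0.0049 in the limma fit. P4HA1, which encodes the other main catalytic subunit, had values of 8.11, 8.24 and 8.49 in control and 8.13, 8.20 and 8.40 in laminin α1 arrays. These groups overlapped fully, with a difference of -0.037 (95% interval -0.27 to 0.20). LOX, which crosslinks collagen and elastin, was below the level filter, between 4.61 and 4.93 on all arrays, with a difference of -0.076 in the fit without the filter.

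ENO2 was the other member that rose. It encodes the neuronal form of enolase, which converts 2-phosphoglycerate to phosphoenolpyruvate, and its values were 6.39, 6.44 and 6.38 in control and 6.77, 6.73 and 6.73 in laminin α1 arrays. The 3 arrays of each group lay close together and the groups did not overlap. The difference was 0.34 (SE 0.060, 95% interval 0.21 to 0.48), or 1.27-fold, with an adjusted p of 0.00863. ENO1, the enolase of most tissues, had values of 12.67, 12.58 and 12.66 in control and 12.62, 12.59 and 12.59 in laminin α1 arrays, which overlapped, and a difference of -0.038 (95% interval -0.18 to 0.10). The calls of P4HA2 and ENO2 were kept whichever of the 6 arrays was left out, with adjusted p values up to 0.0285 for P4HA2 and 0.0478 for ENO2.

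**Figure D2:**
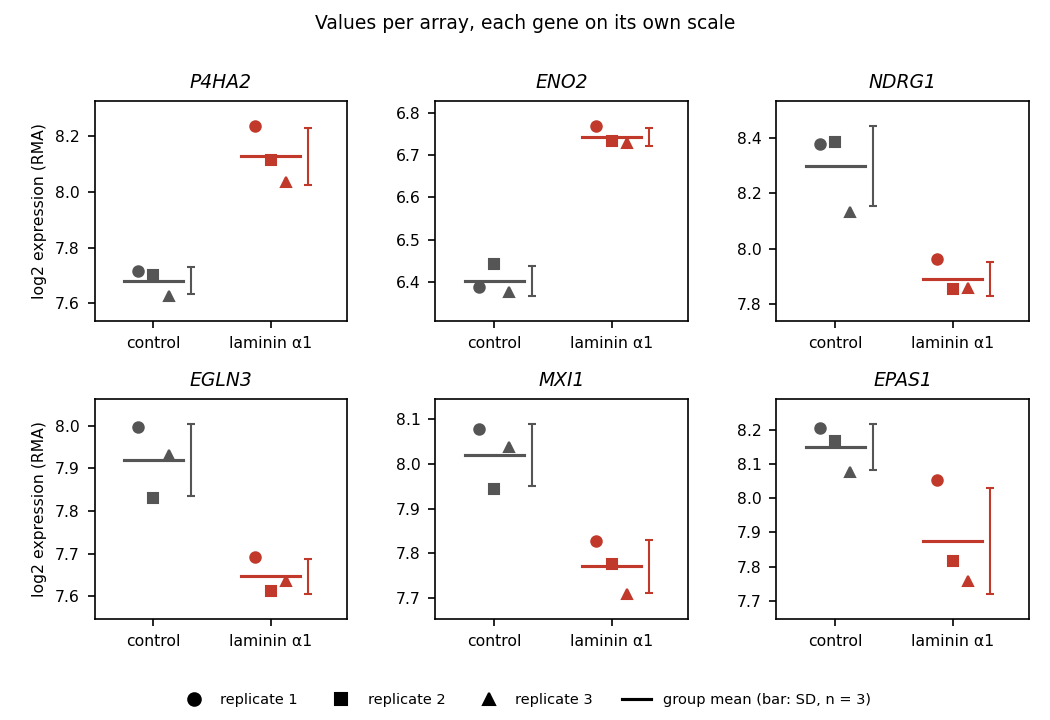
Log2 expression (y axis, a separate scale for each gene) of the 4 called members and of MXI1 and EPAS1 in each array, by group (x axis); symbols give the replicate number, horizontal lines the group means and bars the SD of 3 arrays. For all 6 genes the groups do not overlap, while MXI1 (adjusted p = 0.0673) and EPAS1 (adjusted p = 0.115) did not pass the threshold.

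NDRG1 fell most among the members. It is a cytoplasmic protein of differentiation and stress responses whose transcript is a common marker of hypoxia. Its values were 8.38, 8.38 and 8.13 in control and 7.96, 7.85 and 7.86 in laminin α1 arrays. Control replicate 3 was the lowest control array and still lay above every laminin α1 array. The difference was -0.41 (SE 0.082, 95% interval -0.59 to -0.22), a fall of 1.33-fold with an adjusted p of 0.0173. The call was lost without control replicate 1 (adjusted p = 0.0803), without control replicate 2 (adjusted p = 0.102) and without laminin α1 replicate 2 (adjusted p = 0.0885).

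Of the oxygen sensors, EGLN3, the HIF prolyl hydroxylase that is itself a HIF target, fell, and EGLN1, the main one in most cells, did not pass. EGLN3 had values of 8.00, 7.83 and 7.93 in control and 7.69, 7.61 and 7.64 in laminin α1 arrays, with no overlap. Its difference of -0.27 (SE 0.068, 95% interval -0.42 to -0.12), or 1.21-fold, was only just called, at an adjusted p of 0.0483. Leaving out any 1 of the 6 arrays ended that call, with adjusted p values from 0.0580 to 0.207. Testing without the level filter also ended it (adjusted p = 0.0511), as did centring on array medians (adjusted p = 0.0626). EGLN1 had values of 9.06, 9.13 and 8.97 in control and 9.17, 9.22 and 9.22 in laminin α1 arrays. Its laminin α1 arrays all stood above the control arrays, by 0.15 on average (adjusted p = 0.311), opposite in sign to EGLN3.

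The HIF α subunits themselves did not pass. HIF1A, the subunit found in nearly all cells, had values of 10.29, 10.26 and 10.39 in control and 10.08, 10.26 and 10.52 in laminin α1 arrays. The laminin α1 arrays spread across the whole control range and beyond it on both sides, and the difference was -0.020 (95% interval -0.25 to 0.21). HIF1A protein is set mainly by its breakdown, which these RNA arrays do not measure. EPAS1, which encodes HIF-2α, had values of 8.21, 8.17 and 8.08 in control and 8.05, 7.82 and 7.76 in laminin α1 arrays. All its laminin α1 arrays lay below the control arrays. The mean difference of -0.27 had a 95% interval of -0.46 to -0.083 and an adjusted p of 0.115. Without laminin α1 replicate 1, the highest array of that group, EPAS1 passed with an adjusted p of 0.0203.

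Further targets with regulatory or cell fate roles were separated between the groups without passing the test. MXI1, a MAX partner that antagonises MYC, had values of 8.08, 7.94 and 8.04 in control and 7.83, 7.78 and 7.71 in laminin α1 arrays and a difference of -0.25 (95% interval -0.40 to -0.10). BNIP3L, a mitochondrial receptor for mitophagy, had values of 10.45, 10.44 and 10.46 in control and 10.25, 10.20 and 10.40 in laminin α1 arrays and a difference of -0.17 (adjusted p = 0.264). KDM3A, a histone H3 lysine demethylase, had values of 7.86, 7.88 and 7.86 in control and 7.72, 7.67 and 7.82 in laminin α1 arrays and a difference of -0.13 (adjusted p = 0.355). These 3 were lower with laminin α1 in every array, whereas ANKRD37, a small ankyrin repeat protein and HIF target, was higher in every array. ANKRD37 had values of 6.52, 6.54 and 6.55 in control and 6.63, 6.64 and 6.67 in laminin α1 arrays and a difference of 0.11 (adjusted p = 0.409).

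ANGPTL4, a secreted inhibitor of lipoprotein lipase, was separated upward. Its values were 6.36, 6.15 and 6.31 in control and 6.44, 6.55 and 6.51 in laminin α1 arrays, a difference of 0.23 (95% interval 0.060 to 0.39, adjusted p = 0.137). ADM, the vasodilator peptide adrenomedullin and a sensitive HIF target, overlapped between the groups at 7.71 to 7.93 on all arrays, with a difference of 0.033 (95% interval -0.13 to 0.20). BNIP3, the close relative of BNIP3L, was below the level filter at 4.77 to 4.90. Of the 7 tested HIF targets of this group NDRG1 alone passed, where 5.29% of all tested genes did. Of the 7 differences 3 were positive and 4 negative, with a median of -0.13.

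Glucose uptake and the upper steps of glycolysis had 0 of 11 tested members past the threshold in the limma fit without a replicate block. In that fit 1, PFKFB4, had an unadjusted p under 0.05. Over all tested genes 5.29% passed and 16.7% had an unadjusted p under 0.05. SLC2A1, the glucose transporter GLUT1, had values of 11.51, 11.45 and 11.39 in control and 11.47, 11.42 and 11.34 in laminin α1 arrays. The groups overlapped, with a difference of -0.040 (95% interval -0.19 to 0.11). SLC2A3, the neuronal transporter GLUT3, was below the level filter at 4.54 to 4.68. Of the hexokinases that trap glucose in the cell, HK1 differed by 0.11 and HK2 by 0.090, and the groups overlapped for both. The isomerase GPI differed by 0.044, the phosphofructokinases PFKP and PFKL by -0.010 and 0.064, and the muscle aldolase ALDOA by 0.049.

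PFKFB3 and PFKFB4 make fructose 2,6-bisphosphate, the activator of phosphofructokinase. PFKFB3 differed by -0.0062 (95% interval -0.22 to 0.21). PFKFB4 had values of 6.10, 5.88 and 5.74 in control and 6.25, 6.10 and 6.06 in laminin α1 arrays, with 1 control array inside the laminin α1 range, and differed by 0.23 (95% interval 0.015 to 0.44, adjusted p = 0.259). ALDOC, the brain form of aldolase, had values of 7.64, 7.40 and 7.30 in control and 7.85, 7.57 and 7.55 in laminin α1 arrays. These groups overlapped, with a difference of 0.21 (adjusted p = 0.37). For both PFKFB4 and ALDOC, replicate 1 was the highest and replicate 3 the lowest array of each group. With the replicate number as a block in the limma fit, ALDOC (adjusted p = 0.0408) and PFKFB4 (adjusted p = 0.0398) passed. Whether the numbers pair the arrays is not stated in the labels. TPI1, which interconverts the triose phosphates, had values of 12.44, 12.37 and 12.38 in control and 12.48, 12.54 and 12.49 in laminin α1 arrays. It was separated upward by 0.10 (adjusted p = 0.471), and its second, dimmer probe set gave 0.12.

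In the lower steps of glycolysis 1 of 7 tested members passed, ENO2, where 5.29% of all tested genes did. The other 6 differed by -0.038 to 0.12. GAPDH had values of 13.35, 13.30 and 13.34 in control and 13.31, 13.39 and 13.35 in laminin α1 arrays, a difference of 0.023 (95% interval -0.11 to 0.16). PGK1, phosphoglycerate kinase, had values of 11.76, 11.80 and 11.85 in control and 11.81, 11.83 and 11.80 in laminin α1 arrays, a difference of 0.010 (95% interval -0.13 to 0.15). LDHA, which reduces pyruvate to lactate, had values of 12.39, 12.43 and 12.40 in control and 12.41, 12.42 and 12.44 in laminin α1 arrays, a difference of 0.017 (95% interval -0.12 to 0.15). For these 3 the groups overlapped and the intervals exclude a log2 change in array signal as large as that of ENO2. Their signals lay far above that of ENO2, and whether signal follows RNA alike at both levels was not tested.

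PKM and PDK1 act on either side of pyruvate. PKM, pyruvate kinase, had values of 12.35, 12.28 and 12.28 in control and 12.44, 12.39 and 12.40 in laminin α1 arrays, separated upward by 0.11 (adjusted p = 0.435). PDK1, which phosphorylates and inhibits pyruvate dehydrogenase, had values of 8.55, 8.51 and 8.59 in control and 8.68, 8.63 and 8.70 in laminin α1 arrays, also separated upward, by 0.12 (adjusted p = 0.371). Across uptake, glycolysis and pyruvate fate together, 14 of 18 tested differences were positive, where 6304 of all 13812 tested genes were. The count was not tested. Of the 18 differences 15 lay within 0.15 of 0, with a median of 0.057. Of the 13 tested members outside glycolysis 6 lay within 0.15 of 0, while over all genes tested 76.5% did. GAPDH, PGK1, LDHA, TPI1 and ENO1 have processed pseudogenes close in sequence, whose RNA may bind these probes as well, which leaves their values uncertain to that extent.

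Several members come as related genes of the same step, and the ratio of each pair within an array was compared between the groups. These 8 pairs were compared by exact two-sided permutation tests of 3 against 3 arrays, which cannot give a p below 0.1 and here gave adjusted values of 0.16 or more. The pairs are therefore described by their arrays, as ratios of array signal. Relative to the control mean, the log2 ratio of ENO2 to ENO1 was -0.051, 0.097 and -0.046 in control and 0.38, 0.38 and 0.37 in laminin α1 arrays. The laminin α1 arrays stood together above all control arrays, by 0.38 on average. The ratio of EGLN3 to EGLN1 was 0.071, -0.17 and 0.096 in control and -0.34, -0.47 and -0.45 in laminin α1 arrays, separated downward by -0.42. The ratio of P4HA2 to P4HA1 was 0.20, 0.059 and -0.26 in control and 0.70, 0.51 and 0.24 in laminin α1 arrays. It was separated upward by 0.48, narrowly, and P4HA1 itself ranged over 0.38 among the control and 0.27 among the laminin α1 arrays.

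The ratio of PFKFB4 to PFKFB3 was 0.063, -0.032 and -0.030 in control and 0.19, 0.21 and 0.30 in laminin α1 arrays, separated upward by 0.23. The ratio of PFKP to PFKL was separated too, by -0.075. The remaining 3 ratios, EPAS1 to HIF1A (-0.25), ALDOC to ALDOA (0.16) and HK2 to HK1 (-0.024), overlapped between the groups. The ratios with ENO2, EGLN3 and P4HA2 each contain a member called on the same arrays, so their separation is not a further result. How often the ratios of other gene pairs are separated was not counted, so the number of separated pairs has no background to stand beside.

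**Figure D3:**
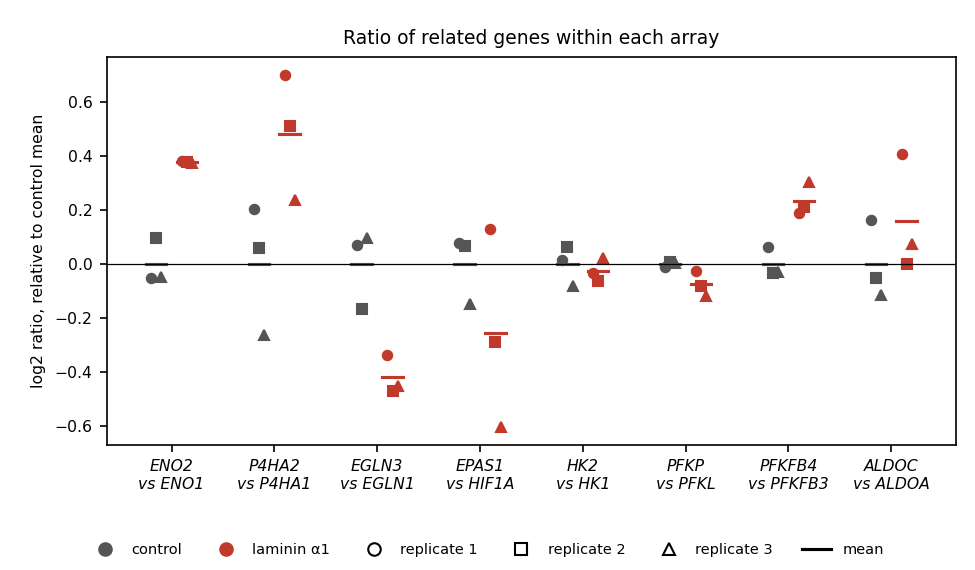
Log2 ratio of 8 pairs of related genes within each array (y axis), relative to the mean of the control arrays; grey symbols are control and red symbols laminin α1 arrays, with shapes for the replicate number and lines for group means. ENO2 to ENO1 is 0.38 higher and EGLN3 to EGLN1 is -0.42 with laminin α1, both without overlap, while HK2 to HK1 overlaps.

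The members also varied with the replicate number, in both groups alike. Replicate 1 was the highest array of both groups for 16 of 31 tested members, or 51.6%, and for 27.9% of all genes tested. Among the 11 tested members of glucose uptake and upper glycolysis this held for 9. Replicate 1 was highest and replicate 3 lowest in both groups for 10 of 31 members, ADM, PFKFB3, PFKFB4, ALDOC and SLC2A1 among them, against 15.9% of all genes. P4HA1 ran the other way, with replicate 3 highest and replicate 1 lowest in both groups. The spread was as large as many differences between the groups: PFKFB3 ranged over 0.26 among the control and 0.31 among the laminin α1 arrays. The labels give no reason for a shared number, and a second principal component with 24.0% of the variance of all tested genes also ordered the arrays by it. By contrast LDHA ranged over 0.041 among the control and 0.037 among the laminin α1 arrays.

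**Figure D4:**
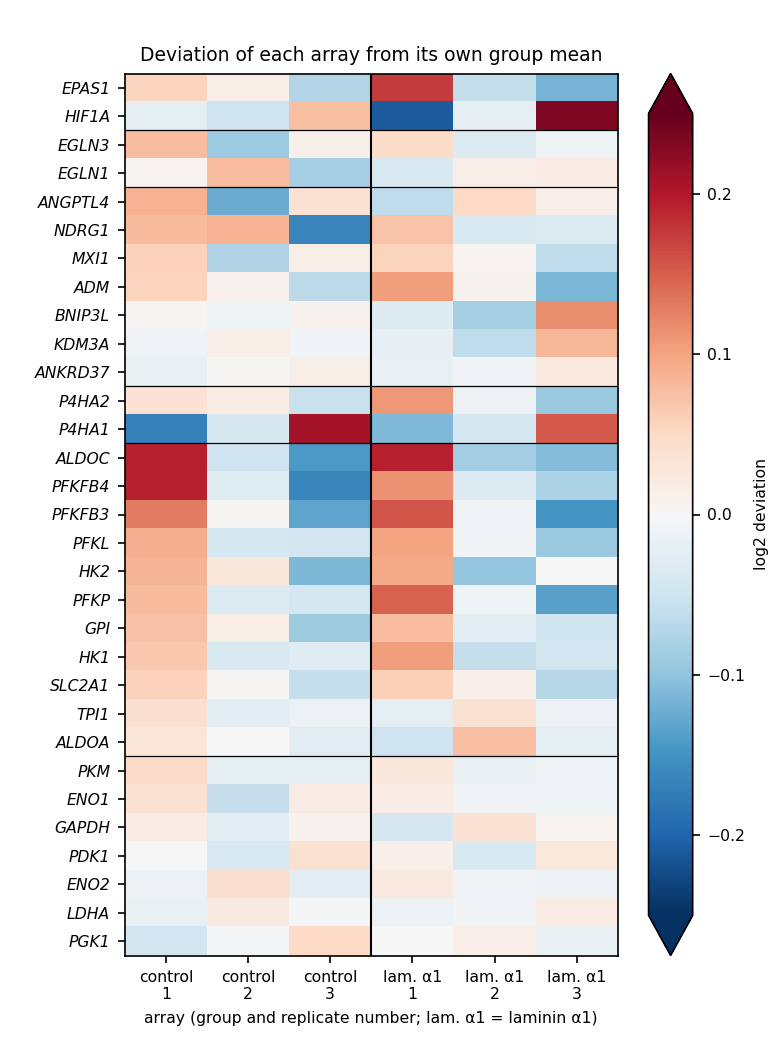
Deviation of each array from the mean of its own group (colour, log2, limits of the scale at -0.25 and 0.25) for the 31 tested members (rows, by role) in the 6 arrays (columns). Replicate 1 is red in both groups for most upper glycolysis genes, such as PFKFB3 and ALDOC, and P4HA1 shows the opposite pattern.

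Other genes of the pathway were taken from lists drawn up by function, and their counts stand beside the same 5.29% of all tested genes. Among 18 tested HIF partners and regulators outside the members, such as ARNT, VHL and the asparaginyl hydroxylase HIF1AN, 0 passed the limma test and 0 had an unadjusted p under 0.05, with a median difference of -0.0020. ARNT differed by -0.12, VHL by -0.0031 and HIF1AN by 0.14. Of 32 other tested HIF targets 1 rose and 2 fell, with a median of -0.067. STC1, the secreted glycoprotein stanniocalcin, had values of 5.46, 5.39 and 5.32 in control and 5.97, 5.86 and 5.95 in laminin α1 arrays. It is the 1 gene of this list that rose, but all its control values lay below the level filter of 5.50. It was tested only through its level in the laminin α1 arrays, so its call supports nothing about the list and no fold is given. FAM13A fell 1.29-fold (adjusted p = 0.0231), and PLIN2, a coat protein of lipid droplets, fell 1.23-fold (adjusted p = 0.0264).

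Of 22 other tested genes of glycolysis and lactate handling 0 rose and 2 fell. HKDC1, a hexokinase family member expressed in intestinal epithelium, had values of 7.34, 7.25 and 7.19 in control and 6.51, 6.67 and 6.57 in laminin α1 arrays. Its fall of 1.60-fold (log2 -0.68, SE 0.072, adjusted p = 0.000352) was larger in size than that of any tested member. MINPP1, an inositol polyphosphate phosphatase that also acts on 2,3-bisphosphoglycerate, fell 1.23-fold (adjusted p = 0.0205). Of 12 tested genes of pyruvate entry into mitochondria 1 fell, PDK4, a second pyruvate dehydrogenase kinase, with values of 8.36, 8.14 and 8.16 in control and 7.81, 7.82 and 7.96 in laminin α1 arrays. Its difference of -0.36 (adjusted p = 0.0265) had the opposite sign to that of PDK1.

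Among 15 tested genes of collagen hydroxylation and crosslinking other than the members, 1 rose and 4 had an unadjusted p under 0.05 by limma. The 15 differences, 8 positive and 7 negative, ran from -0.34 to 0.79, with a median of 0.0045. The lowest was that of PLOD2, whose groups overlapped (adjusted p = 0.162 by limma). LOXL4, a lysyl oxidase relative of LOX, had values of 7.21, 7.18 and 7.01 in control and 8.17, 7.73 and 7.86 in laminin α1 arrays, a rise of 1.72-fold (log2 0.79, SE 0.11, adjusted p = 0.00195). P4HB, the shared β subunit of the prolyl 4-hydroxylases, differed by -0.038 (95% interval -0.18 to 0.099). By limma 0 of 9 tested pentose phosphate genes passed (1 with an unadjusted p under 0.05), 0 of 13 mitophagy genes (1), 0 of 13 relatives of NDRG1 and genes of the MYC and MXI1 network (2), and 0 of 5 genes around adrenomedullin and the angiopoietin-like proteins (0).

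The chromosomal neighbours of the called members were counted too, beside the 5.29% of all tested genes that passed. Among the 24 tested genes nearest to ENO2 in RefSeq order, 12 on either side, 0 passed the threshold and the median difference was -0.0052. Of the 24 nearest to NDRG1 0 passed as well, with a median of -0.0090. Around P4HA2 2 of 24 were higher and 1 lower (median 0.032), and around EGLN3 1 of 24 was lower (median -0.060).

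Checks of the whole series touched these values as follows. Array medians lay between 6.45 and 6.49 and 730 of 13812 genes passed the threshold. Of 12 colon epithelium markers, all above the level filter by their mean over the 6 arrays, 4 fell, CDH17, GPA33, KRT20 and LGALS4, and the mean level of all 12 per array was 10.0 to 10.1 in control and 9.79 to 9.81 in laminin α1 arrays. CDH17, an intestinal cadherin, fell most, from a mean of 6.58 to 4.93, which is below the level filter, while the median difference of the 12 was -0.049 and 4 of them were positive. The part of these 4 genes' fall in the members' differences was not tested. Of 9 fibroblast markers 4 and of 9 endothelial and blood markers 6 lay below the level filter, and 0 of the tested ones passed (0 and 1 with an unadjusted p under 0.05 in the limma fit). Of 10 housekeeping genes SDHA alone passed, 1.24-fold higher, and 3 had an unadjusted p under 0.05 in the limma fit. The differences of the 10 ran from -0.32, in TFRC, to 0.31, in SDHA. TFRC was also counted among the other HIF targets above. In RNA of whole cultures, fewer cells that express a gene and less of its RNA per cell cannot be told apart.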

How the data were processed

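Total RNA of 6 HT29 cultures, 3 control and 3 laminin α1, was measured on Affymetrix arrays. The deposited values are log2 expression per probe set, which the authors computed by RMA in Affymetrix Expression Console 1.1, as the submitters' processing notes state. RMA equalises the distributions of arrays, so a shift common to all genes is invisible. The 33297 probe sets were used as deposited (1 symbol for 19460, several for 1754, none for 12083). Differences are laminin α1 minus control from limma 3.58.1 (lmFit, eBayes; R 4.3.3), with Benjamini-Hochberg adjustment over the 13812 genes above the 25th percentile. Members below it take values from a fit without filter. The median SE was 0.0754. Only 3 arrays per group limit the precision, and p values reflect only the variation between passages. The fit was run on simulated data with independent noise and changes larger than those of the called members. That run therefore does not cover differences of their size or variation shared by replicate number. The members and lists were chosen with earlier results of these data known. Full values are given for members past the threshold in any fit and for 10 core genes. From each other list they are given for up to 4 genes past the threshold. Outside this rule, full values are also given for P4HA1 and ENO1, the relatives of P4HA2 and ENO2. ARNT, VHL, HIF1AN, P4HB, PLOD2 and TFRC were named after their values were seen. Upstream sequences at RefSeq starts were at hand for 32 of 35 members, and none was supplied for BNIP3L, NDRG1 and SLC2A3. RefSeq order placed 13795 genes. Alternatives were other filters, probe set rules, scalings, variance models, array weights, a replicate block, stricter thresholds and each array left out.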

Additional observations from a re-analysis of the deposited data

How the results depend on the processing

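P4HA2 passed in all 15 alternative fits and ENO2 in the 14 in which it was tested, since it lies below the filter at the 50th percentile. NDRG1 passed in 11 of 15 and EGLN3 in 5 of 15. Array weights gave 4691 genes past the threshold instead of 730, with 9 members higher and 6 lower. That weight estimate stopped before convergence and put most weight on the second array of each group. With adjusted p under 0.01, 393 genes passed, with 2 members higher and 0 lower (5 lower with an unadjusted p under 0.05 by limma). Leaving out 1 array gave 407 to 1214 genes, with 2 members higher in each case and 0 to 2 lower (0 without control replicate 1, control replicate 2 or laminin α1 replicate 2, where 4 were lower at an unadjusted p under 0.05). The filter at the 50th percentile left 1 member higher. Lower members were 1 without a filter, 1 with centring, 1 with the trended and robust fit and 0 with all probe sets tested separately (5 at an unadjusted p under 0.05). The cause was not tested.

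Deviations of same-numbered arrays correlated at 0.39, 0.022 and 0.53, which is not over 0.1 for every pair, and not every array correlated best with its own number. The numbers were therefore not taken as a pairing, although the labels leave it unstated and many genes varied with them. With the replicate number as a block 1596 genes passed, with 4 members higher (ALDOC, adjusted p = 0.0408, and PFKFB4, adjusted p = 0.0398, added) and 4 lower (EPAS1 and MXI1 added).

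Signs changed 17 times in 10 members, at differences up to 0.084 in size and 0 of them past the threshold. With array weights HK2 was -0.0051, PFKP 0.0094, ENO1 0.0056, LDHA -0.0074 and HIF1A 0.011. Over the arrays left out ADM ranged from -0.020 to 0.089, P4HA1 from -0.12 to 0.067, GPI from -0.0011 to 0.080, PFKFB3 from -0.085 to 0.068, PFKP from -0.084 to 0.058, PGK1 from -0.014 to 0.035 and HIF1A from -0.14 to 0.084. The median difference of the members lay between 0.017 and 0.068 in the 15 alternative fits.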
